A study of Mus musculus with 12 samples.

Results

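MHC class I antigen presentation was followed through 10 genes listed by function: H2-K1, H2-D1, B2m, Tap1, Tap2, Tapbp, Psmb8, Psmb9, Psmb10 and Nlrc5. Each was found by its gene identifier, and all 10 passed the filter on low counts, as did 18066 of the 32688 genes in the table. RNA was sequenced from RAW264.7 cells, a mouse macrophage line, with 3 libraries in each of 4 groups. The groups were Null control, CRISPR TFEB/TFE3 double knockout (DKO) control, Null etoposide and DKO etoposide, with the drug at 100 µM for 8 h. Null is the word of the labels, and the study describes its RAW264.7 comparison as wild type against DKO cells. Etoposide breaks DNA by trapping topoisomerase II, and TFEB and TFE3 are related transcription factors best known for lysosomal genes. Each genotype is represented by a single line, and the replicates therefore carry the spread between cultures or libraries only. Control cells are called untreated in the labels, whereas the study's methods give DMSO.

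Class I molecules display peptides from inside the cell to CD8 T cells. Peptides are cut by the proteasome, often by a form in which the subunits encoded by Psmb8, Psmb9 and Psmb10 replace the standard ones, and are pumped into the endoplasmic reticulum by the transporter made of Tap1 and Tap2. Tapasin (Tapbp) holds the transporter next to the heavy chain (H2-K1 or H2-D1), which pairs with beta-2 microglobulin (B2m). Nlrc5 is the transactivator of the pathway and works with RFX, CREB and NF-Y proteins at a compact promoter module, and interferon raises most of these genes through factors of the IRF family among others.

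7 of the 10 genes lie on chromosome 17 in the major histocompatibility complex, over 1351.6 kb (GRCm38, 33915899 to 35267499), and 4 of them, Psmb9, Tap1, Psmb8 and Tap2, lie within 34.34 kb (34181987 to 34216321). B2m is on chromosome 2 (122147686 to 122153083), and Nlrc5 (94434356 to 94527272) and Psmb10 (105935735 to 105938444) are on chromosome 8. The promoters are shown because the members differed in how they moved, and these stretches hold the letters that their regulators are known to read. The RefSeq table (GRCm38.p6) held 8 of the 10, all but Tap2 and Nlrc5. The 250 bases before the start site were searched on both strands for 5 motifs, a set chosen with these sequences in view. They were AANNGAAA for IRF proteins, the NF-kB consensus, TGACG as read by CREB, the NF-Y box CCAAT, and the E box of TFEB and TFE3, CACGTG. The only overlap between matches was of 2 NF-kB matches 1 base apart in each heavy chain gene. Capitals mark the matches in these 5 stretches, given 5′ to 3′ on the strand of the gene.
H2-K1 (chr17:34000334-34000583, minus strand): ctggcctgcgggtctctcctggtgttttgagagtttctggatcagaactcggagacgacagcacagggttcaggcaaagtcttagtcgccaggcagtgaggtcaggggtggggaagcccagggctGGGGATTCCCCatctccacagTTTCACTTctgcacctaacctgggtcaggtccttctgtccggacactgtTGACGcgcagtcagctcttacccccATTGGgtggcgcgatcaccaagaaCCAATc
H2-D1 (chr17:35262844-35263093, plus strand): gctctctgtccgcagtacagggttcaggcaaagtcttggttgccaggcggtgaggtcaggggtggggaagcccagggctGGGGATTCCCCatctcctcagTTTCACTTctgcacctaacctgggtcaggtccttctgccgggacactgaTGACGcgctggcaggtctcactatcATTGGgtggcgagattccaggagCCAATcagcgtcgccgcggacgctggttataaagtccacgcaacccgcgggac
B2m (chr2:122147437-122147686, plus strand): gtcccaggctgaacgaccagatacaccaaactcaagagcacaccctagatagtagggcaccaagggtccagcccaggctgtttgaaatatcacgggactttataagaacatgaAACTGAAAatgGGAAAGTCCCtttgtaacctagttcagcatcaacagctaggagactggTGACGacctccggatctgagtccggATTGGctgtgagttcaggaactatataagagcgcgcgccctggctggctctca
Tap1 (chr17:34187306-34187555, plus strand): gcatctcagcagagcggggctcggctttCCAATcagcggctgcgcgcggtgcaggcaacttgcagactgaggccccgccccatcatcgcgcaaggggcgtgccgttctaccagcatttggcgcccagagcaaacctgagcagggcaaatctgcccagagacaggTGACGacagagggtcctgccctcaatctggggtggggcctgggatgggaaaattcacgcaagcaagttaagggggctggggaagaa
Psmb10 (chr8:105938393-105938642, minus strand): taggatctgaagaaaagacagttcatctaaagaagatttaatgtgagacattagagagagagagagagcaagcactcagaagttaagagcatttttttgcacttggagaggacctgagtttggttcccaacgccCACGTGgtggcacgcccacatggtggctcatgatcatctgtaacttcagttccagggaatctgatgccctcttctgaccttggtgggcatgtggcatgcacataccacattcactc
H2-K1, whose other entry in the table starts 14 bases away, and H2-D1 carried the same series, with the NF-kB match first, then IRF, CREB and 2 NF-Y matches. B2m carried all 4 of these kinds as well. Tap1 and Psmb9 are read in opposite directions from start sites 226 bases apart, so the Tap1 stretch is largely the Psmb9 promoter in reverse. It held a CREB and an NF-Y match and none for IRF or NF-kB. Of the 8 genes, 3 held an IRF match, 3 an NF-kB, 5 a CREB and 6 an NF-Y match. Among all 32851 promoters of the table, 21.3% held an IRF, 7.25% an NF-kB, 17.8% a CREB and 33.8% an NF-Y match. The E box was found in 1 of the 8, Psmb10, and in 6.02% of all promoters. These matches are letters in a window and not measured binding.

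The labels were checked first with the targeted genes. Tfeb lay at 16.6 to 17.2 CPM (counts scaled to the TMM-adjusted library size) in Null control and 3.14 to 5.25 CPM in DKO control libraries, and Tfe3 at 89.4 to 119 CPM and 31.5 to 42.5 CPM. After etoposide Tfeb lay at 7.10 to 7.95 CPM in Null and 4.27 to 4.44 CPM in DKO libraries, and Tfe3 at 99.1 to 103 CPM and 34.2 to 40.4 CPM. Both transcripts were reduced, but not lost, in DKO libraries of either treatment. The DKO level of Tfeb was 26.2% of the Null level in control cells and 57.4% after etoposide. Total counts per library ran from 29837255 to 61809316, and mitochondrial transcripts took 19.4% to 21.7% of them in Null etoposide and 14.1% to 18.3% in the other libraries. The titles of the DKO etoposide libraries hold the word MEFs (mouse embryonic fibroblasts) while their other labels say RAW264.7. In these libraries 8 macrophage markers summed to 4585 to 4775 CPM (4193 to 5132 CPM over the other groups) and 8 fibroblast markers to at most 1.20 CPM. Against Null etoposide cells 2 of the 8 macrophage markers were lower there, Fcgr1 (5.13 against 37.0 CPM) and Itgam (342.5 against 449 CPM), and 2 were higher, Spi1 (375 against 187 CPM) and Ptprc (243 against 181 CPM). The Itgam call was lost in 6 of 23 alternatives, and 63.0% of its counts would come from the overlapping gene Gm49368 at that gene's mean read density, an estimate used for all overlaps here and no upper limit. Gm49368 shares 3450 of its 4803 exon bases with Itgam on the same strand, so its counts may in turn be Itgam reads. In control cells 4 of the 8 were lower in DKO (8.39% of all genes), Fcgr1 (-1.25 on the log2 scale), Itgam (-0.65), Lyz2 (-0.59) and Csf1r (-0.44). Spi1 (0.56) and Ptprc (0.30) were higher in DKO control cells (10.9% of all genes), and the Ptprc call was lost in 2 of 23 alternatives. 5 dendritic cell markers summed to 35.4 to 36.1 CPM in DKO etoposide libraries and to 2.72 to 7.48 CPM elsewhere, nearly all of it Itgax (32.0 CPM), with Ccr7 and Flt3 below 0.05 CPM. Xcr1, at 2.26 CPM there, was also higher than in Null etoposide cells (1.10 CPM, log2 difference 0.99, limma-trend adjusted p = 0.00255). Between control cells, Itgax was also higher in DKO (log2 difference 3.90, limma-trend adjusted p = 2.06e-06) and Xcr1 was lower (-0.93, limma-trend adjusted p = 0.00637). The part of these differences in the results on DKO control and DKO etoposide cells was not tested. T and NK cell markers were at or near 0. In bulk RNA, fewer cells with a transcript and less of it per cell cannot be told apart.

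Nlrc5 and Tap1 were the members that moved in every comparison. Both rose with etoposide in both genotypes, both stood lower in DKO cells with and without the drug, and the rise of both was smaller in DKO cells, a call that for Nlrc5 was lost in 14 of 22 alternatives. The genes for the peptide-binding molecule itself, H2-K1, H2-D1 and B2m, did not pass the test in any comparison. The immunoproteasome genes Psmb8 and Psmb9 differed by genotype and did not pass the test for the drug. Genes were tested with limma-trend and a Benjamini-Hochberg correction over all 18066 genes, with a call at an adjusted p under 0.05.

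**Figure D1:**
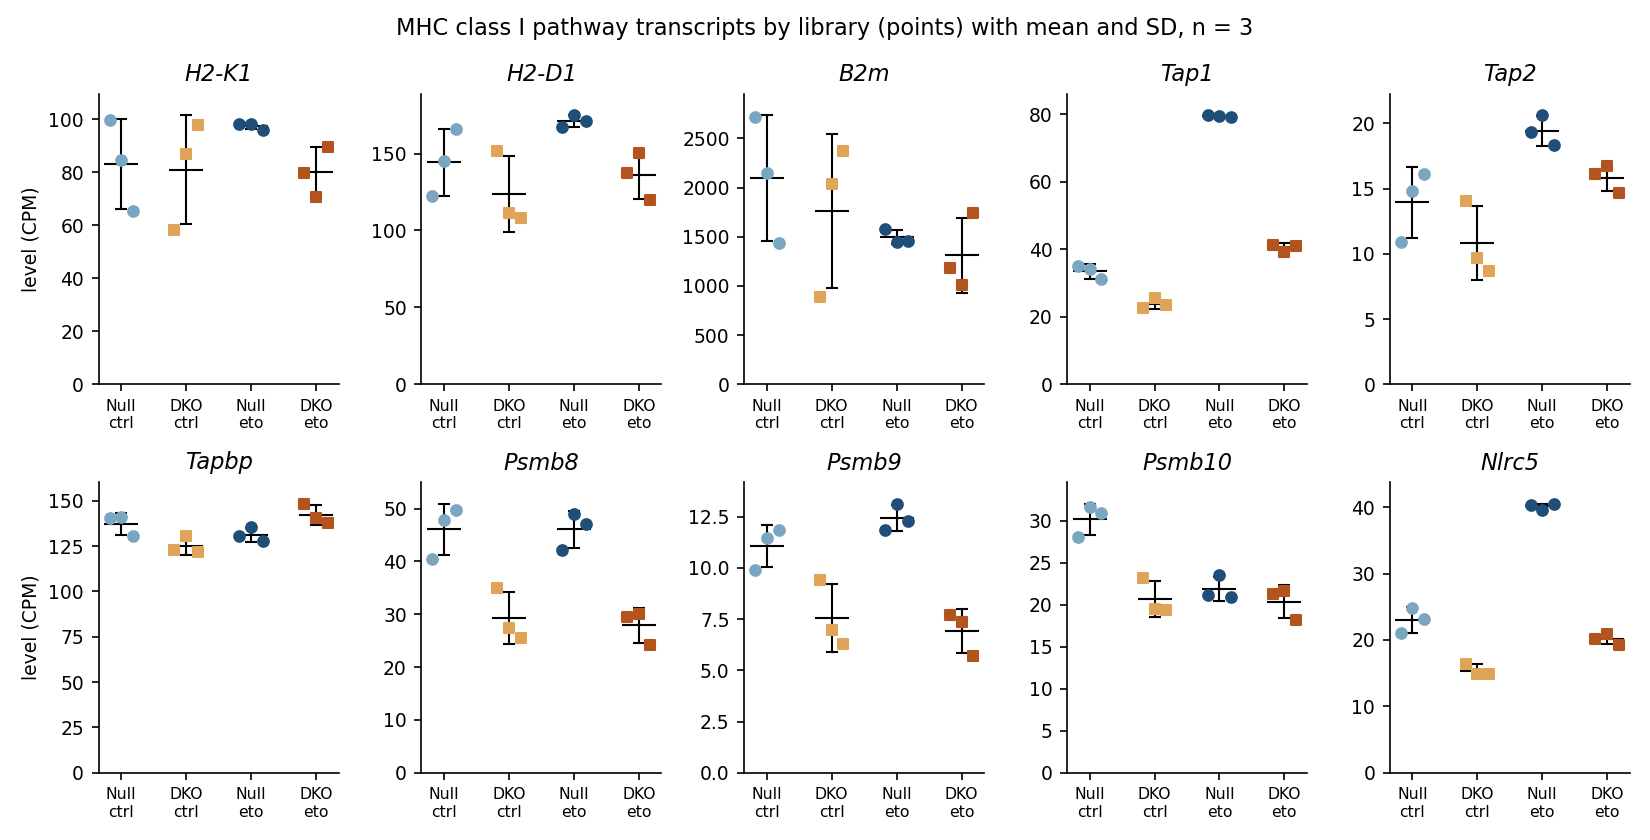
Level in CPM (vertical axes, each from 0) of the 10 members in the 4 groups, where each point is 1 library and the bars are the mean and SD of 3 libraries (ctrl, control; eto, etoposide). Tap1 and Nlrc5 are highest in the Null etoposide libraries, at 79.2 to 79.7 CPM and 39.6 to 40.4 CPM, above all other libraries, while B2m spreads from 883 to 2714 CPM without separating the groups.

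Etoposide in Null cells changed 4 of the 10 members, with Tap1, Nlrc5 and Tap2 higher and Psmb10 lower, where 39.6% of all genes tested were called (20.9% higher and 18.7% lower). The libraries of the 2 treatments did not overlap for 6 members (53.0% of all genes). The median log2 difference of the members was 0.21, against 0.03 over all genes. In DKO cells 4 members rose, Tap1, Nlrc5, Tap2 and Tapbp, against 39.3% of all genes called (20.2% higher and 19.1% lower), with a median of 0.08 (0.03 over all genes) and no overlap for 4 members (46.4% of all genes). The share of members called was thus near the background in both genotypes.

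Between DKO and Null control cells 5 of 10 members were called, all lower in DKO: Psmb8, Nlrc5, Psmb9, Psmb10 and Tap1. Over all genes 19.3% were called (10.9% higher and 8.39% lower), and the same 5 members had no overlap between genotypes (27.6% of all genes). The difference was negative for all 10 members, with a median of -0.43 (0.00 over all genes). After etoposide 4 of 10 were lower in DKO cells, Nlrc5, Tap1, Psmb9 and Psmb8, against 33.6% of all genes called (15.9% higher and 17.8% lower). Here 9 of 10 differences were negative, with a median of -0.32 (-0.01 over all genes), and the libraries of the 2 genotypes did not overlap for 8 members (55.6% of all genes). These comparisons share their libraries with the comparisons of the drug above.

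The interaction asks whether the response to the drug depended on genotype, as the log2 response in DKO minus that in Null cells. It was called for 2 members, Tap1 and Nlrc5, both negative, against 9.45% of all genes called (3.07% positive and 6.39% negative).

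**Figure D2:**
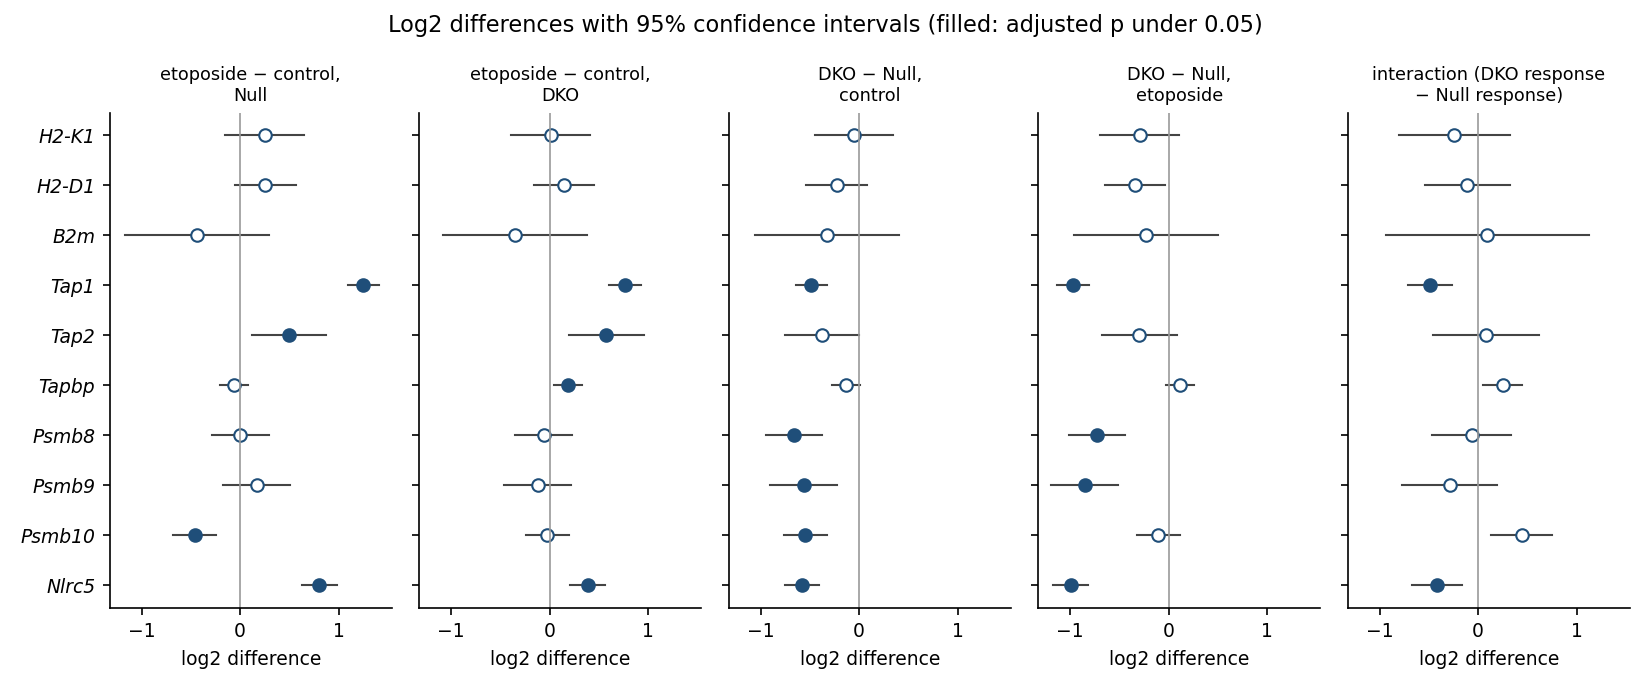
Log2 difference (horizontal axes) of each member in the 5 comparisons, with the 95% confidence interval from limma-trend. Filled points have an adjusted p under 0.05; Nlrc5 and Tap1 are filled in all 5 panels, H2-K1, H2-D1 and B2m in none.

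Nlrc5, the transactivator, lay at 21.0, 24.9 and 23.2 CPM in the Null control libraries and at 40.3, 39.6 and 40.4 CPM after etoposide. In DKO cells it lay at 16.5, 14.8 and 14.8 CPM in control and at 20.2, 20.8 and 19.3 CPM in etoposide libraries. The Null etoposide libraries stood apart from all others, and the DKO etoposide libraries all lay below the lowest Null control library. The Null etoposide libraries also had the highest mitochondrial share, and with these transcripts left out the rise in Null cells was 0.79 for Nlrc5 and 1.24 for Tap1 and the members called were the same in all 5 comparisons. Etoposide raised Nlrc5 1.74-fold in Null cells (log2 difference 0.80, SE 0.0813, limma-trend adjusted p = 7.65e-06) and 1.31-fold in DKO cells (0.39, limma-trend adjusted p = 0.00222). DKO cells held 66.8% of the Null level in control (log2 difference -0.58, limma-trend adjusted p = 0.000209) and 50.1% after etoposide (-0.99, limma-trend adjusted p = 1.15e-06). The rise on the log2 scale was smaller in DKO cells by 0.42 (interaction -0.42, SE 0.115, limma-trend adjusted p = 0.0405). The alternatives without this last call included the fits that left out any 1 library other than Null control replicate 2 (-0.34 to -0.44), with an adjusted p of up to 0.114.

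Tap1, a chain of the peptide transporter, showed the largest fold of the members. Its levels were 35.0, 34.1 and 31.0 CPM in Null control and 79.7, 79.5 and 79.2 CPM in Null etoposide libraries. In DKO libraries they were 22.6, 25.6 and 23.4 CPM in control and 41.4, 39.2 and 41.1 CPM after etoposide. No 2 groups overlapped, and the order from low to high was DKO control, Null control, DKO etoposide and Null etoposide. The rise with etoposide was 2.38-fold in Null cells (log2 difference 1.25, SE 0.0725, limma-trend adjusted p = 7.03e-08) and 1.70-fold in DKO cells (0.77, limma-trend adjusted p = 3.78e-06). DKO cells held 71.4% of the Null level in control (-0.48, limma-trend adjusted p = 0.000349) and 51.0% after etoposide (-0.97, limma-trend adjusted p = 5.19e-07). The interaction was -0.49 (SE 0.103, limma-trend adjusted p = 0.00947) and kept its call in every alternative but that of a minimum fold, with an adjusted p between 0.000346 and 0.0397. An estimated 1.21% of the Tap1 counts would come from Psmb9, which overlaps it by 212 bases on the other strand.

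Tap2, the partner chain, lay at 10.9, 14.8 and 16.1 CPM in Null control, 14.0, 9.68 and 8.72 CPM in DKO control, 19.4, 20.6 and 18.4 CPM in Null etoposide and 16.1, 16.7 and 14.7 CPM in DKO etoposide libraries. Etoposide libraries were above control libraries of the same genotype without overlap, and the genotypes overlapped in control cells. The rise was 1.39-fold in Null cells (0.50, SE 0.174, limma-trend adjusted p = 0.0391) and 1.47-fold in DKO cells (0.58, limma-trend adjusted p = 0.0192). The 2 chains of the transporter thus rose to different degrees in Null cells, by 1.25 and 0.50 on the log2 scale, a difference between genes that was not tested. In Null cells the Tap2 call was lost in 11 of 23 alternatives, including the fits that left out Null control replicate 1 (0.33) or 2 (0.55), DKO control replicate 2 (0.48) or any 1 of the 6 etoposide libraries (0.45 to 0.54). In DKO cells it was lost without DKO control replicate 2 (0.52) or 3 (0.44) and without DKO etoposide replicate 1 (0.58) or 2 (0.55). In control cells the genotype difference (-0.38, limma-trend adjusted p = 0.171) was called without Null control replicate 1 (-0.54) or DKO control replicate 1 (-0.60). At their mean read density the antisense transcripts Gm20496 and Gm15821 would give 26.5% and 14.4% of the Tap2 counts.

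Tapbp, the tapasin gene, passed the test in 1 comparison, with a small difference. It lay at 140.5, 141 and 130.3 CPM in Null control, 123, 131 and 122 CPM in DKO control, 131, 135 and 128 CPM in Null etoposide and 148, 140.4 and 137 CPM in DKO etoposide libraries. The 12 libraries covered 122 to 148 CPM, the narrowest relative range of the members. In DKO cells it rose 1.14-fold (0.19, SE 0.0649, limma-trend adjusted p = 0.0389), a call lost in 10 of 23 alternatives, including the fits that left out DKO control replicate 1 (0.18) or 3 (0.17), DKO etoposide replicate 1 (0.16) or 2 (0.20), Null control replicate 2 (0.18), or Null etoposide replicate 2 (0.19) or 3 (0.19). In Null cells the difference was -0.06 with a 95% interval from -0.21 to 0.08. An estimated 6.24% of its counts would come from the antisense gene Gm19412.

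The 3 immunoproteasome genes were lower in DKO control cells by 0.55 to 0.66 on the log2 scale, and after the drug the genotype difference was called for Psmb8 and Psmb9 and not for Psmb10. Psmb8 lay at 40.5, 47.8 and 49.8 CPM in Null control and at 35.0, 27.3 and 25.6 CPM in DKO control libraries. After etoposide it lay at 42.2, 49.0 and 47.0 CPM in Null and 29.6, 30.1 and 24.1 CPM in DKO libraries. Null and DKO libraries did not overlap in either treatment. DKO cells held 63.6% of the Null level in control (-0.66, SE 0.131, limma-trend adjusted p = 0.00294) and 60.6% after etoposide (-0.72, limma-trend adjusted p = 0.000939), and the difference with the drug in Null cells was 0.00 with a 95% interval from -0.28 to 0.29. At its mean read density the antisense gene Gm20496 would give 33.0% of the Psmb8 counts.

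Psmb9 lay at 9.92, 11.4 and 11.8 CPM in Null control, 9.43, 6.98 and 6.28 CPM in DKO control, 11.9, 13.1 and 12.3 CPM in Null etoposide and 7.69, 7.38 and 5.69 CPM in DKO etoposide libraries. The genotypes did not overlap in either treatment, though DKO control replicate 1 came close to the lowest Null library. DKO cells held 68.4% of the Null level in control (-0.56, SE 0.156, limma-trend adjusted p = 0.0234) and 55.6% after etoposide (-0.85, limma-trend adjusted p = 0.00105). The control call was lost without Null control replicate 2 (-0.54) or 3 (-0.51), without DKO control replicate 2 (-0.53) or 3 (-0.44) and when only these 2 groups were fitted (-0.57). Unlike Tap1, its head-to-head neighbour, Psmb9 was not called with etoposide. Its differences with etoposide were 0.17 (95% interval -0.17 to 0.51) in Null and -0.12 (-0.46 to 0.22) in DKO cells. An estimated 18.6% of its counts would come from Tap1.

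Psmb10 was the member that fell with etoposide in Null cells. It lay at 28.1, 31.6 and 30.9 CPM in Null control and at 21.2, 23.5 and 21.0 CPM in Null etoposide libraries, against 23.2, 19.6 and 19.4 CPM in DKO control and 21.3, 21.7 and 18.2 CPM in DKO etoposide libraries. The Null control libraries stood above all others, and the remaining 3 groups overlapped. The fall in Null cells was -0.46 (SE 0.101, limma-trend adjusted p = 0.00292), and the genotype difference was -0.55 in control cells (limma-trend adjusted p = 0.00177) and -0.10 after etoposide (95% interval -0.32 to 0.11). Its interaction of 0.44 had an adjusted p of 0.0811 by limma-trend, and it was called without DKO control replicate 1 (0.55), without DKO etoposide replicate 3 (0.54) and with DESeq2 (0.46).

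Each inducible subunit takes the place of 1 standard subunit, so the members were set against their counterparts per kb of exon. Exon length was the union of all annotated exons of a gene, for example 3381 bases for Psmb8, 3660 for Psmb9 and 899 for Psmb5. The absolute ratios therefore depend on the annotation and are not proportions of subunits. As geometric means over libraries, Psmb8 stood at 0.662 times Psmb5 in Null control and 0.319 times in DKO control cells, and at 0.649 and 0.279 times after etoposide. Psmb9 stood at 0.0518 and 0.0372 times Psmb6 in control and at 0.0513 and 0.0253 times after etoposide. Psmb10 stood at 0.681 and 0.471 times Psmb7 in control and at 0.640 and 0.492 times after etoposide. All 3 ratios separated DKO below Null libraries without overlap in both treatments, and in DKO cells the first and second were lower still after etoposide. Of 12 comparisons, 8 did not overlap, each at the smallest p that 3 against 3 libraries allow (exact two-sided permutation test, p = 0.1, adjusted p = 0.15), so none could be called. None of the 3 standard subunits was called between genotypes in control cells, and Psmb5 was higher in DKO cells after etoposide (0.49, limma-trend adjusted p = 0.0131), a call lost without Null etoposide replicate 1 (0.445) or DKO etoposide replicate 2 (0.41). The miRNA gene Mir686 lies wholly within the exons of Psmb5 on the same strand, and its counts amount to 44.2% of those of Psmb5, on which the first ratio rests. These reads may be those of Psmb5 itself, and which gene they come from was not tested. An estimated 2.60% of the Psmb7 counts would come from Nek6.

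**Figure D3:**
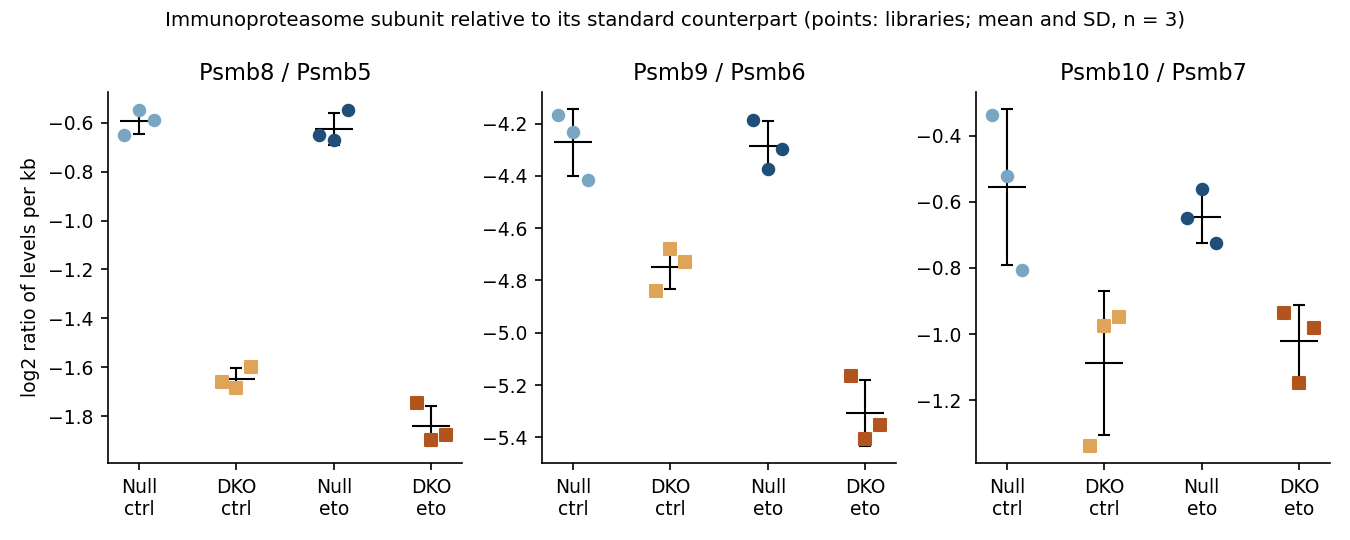
Log2 ratio of reads per kb (vertical axes, not from 0) of each immunoproteasome subunit to its standard counterpart, where points are libraries and bars are the mean and SD of 3 libraries. The mean ratio of Psmb8 to Psmb5 is -0.59 and -0.62 in Null libraries and -1.65 and -1.84 in DKO libraries on the log2 scale.

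B2m was the most abundant member and, in 3 of the 4 groups, the one with the largest SD between libraries on the log2 scale, Null etoposide being the exception. Per kb of exon in Null control cells, B2m stood at 2441 ± 743 CPM (SD, n = 3), followed by H2-D1 (55.9 ± 8.45), Tapbp (37.9 ± 1.68), H2-K1 (28.3 ± 5.81), Psmb10 (17.7 ± 1.10), Psmb8 (13.6 ± 1.45), Tap1 (6.10 ± 0.383), Tap2 (3.69 ± 0.712), Psmb9 (3.02 ± 0.276) and Nlrc5 (2.71 ± 0.229). Neighbours in this order overlapped between libraries only for Tap2 with Psmb9 and Psmb9 with Nlrc5. The order also depends on the annotated exon lengths. RAW264.7 cells come from BALB/c mice, whose H2 haplotype differs from that of the C57BL/6 reference, and the effect on the counts of H2-K1 and H2-D1 was not tested. Of all 75-base windows of their transcripts, 3.10% for H2-K1 and 5.40% for H2-D1 also occurred in a transcript of another gene, and none did for B2m, Tap1, Tap2, Psmb8, Psmb9, Psmb10 or Nlrc5.

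B2m lay at 2714, 2144 and 1439 CPM in Null control, 883, 2034 and 2376 CPM in DKO control, 1582, 1448 and 1462 CPM in Null etoposide and 1183, 1005 and 1743 CPM in DKO etoposide libraries. Its SD on the log2 scale was 0.46, 0.77, 0.07 and 0.41 in these groups, against a median over all genes of 0.21, 0.24, 0.09 and 0.15. The groups overlapped in all 4 comparisons, and the differences with etoposide were -0.44 in Null cells (95% interval -1.17 to 0.29) and -0.35 in DKO cells (-1.08 to 0.38). Without DKO control replicate 1, which held the lowest level, the fall in DKO cells was -0.78 and was called.

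H2-K1 lay at 99.5, 84.5 and 65.4 CPM in Null control, 58.0, 86.9 and 97.8 CPM in DKO control, 98.1, 98.2 and 96.1 CPM in Null etoposide and 79.8, 70.7 and 89.4 CPM in DKO etoposide libraries. H2-D1 lay at 122, 145 and 166 CPM in Null control, 152, 111 and 108 CPM in DKO control, 167, 175 and 171 CPM in Null etoposide and 138, 151 and 120 CPM in DKO etoposide libraries. Both were at their tightest in Null etoposide libraries, and these lay above all DKO etoposide libraries for both genes. That difference after etoposide was -0.29 for H2-K1 (95% interval -0.69 to 0.11, limma-trend adjusted p = 0.255) and -0.34 for H2-D1 (-0.64 to -0.03, limma-trend adjusted p = 0.0847). Both were called when only the 2 etoposide groups were fitted (-0.29 and -0.34). The H2-D1 differences were also called without DKO control replicate 1, at -0.33 after etoposide, -0.40 in control cells and 0.31 with the drug in DKO cells.

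The order of the 3 libraries within a group was compared with that of B2m, where chance alone gives many matches. In both control groups and in DKO etoposide libraries, H2-K1 ranked the 3 libraries in the same order as B2m, and H2-D1, Tap2 and Psmb8 ranked them in exactly the reverse order. Psmb9 ran in reverse in the control groups and in Null etoposide libraries, and Psmb10 and Nlrc5 in both DKO groups. The same order as B2m was held by 2 of the 9 other members in Null control (H2-K1 and Tap1), 1 in DKO control and 1 in DKO etoposide libraries. Over all genes tested these shares were 28.2%, 24.6% and 25.5%. The reverse order was held by 4 of the 9 other members in Null and 6 in DKO control libraries (31.7% and 28.4% of all genes tested), and after etoposide by 3 in Null and 5 in DKO libraries (20.3% and 25.3%). The ratio of B2m to H2-D1 ran from 5.81 in DKO control replicate 1 and 6.68 in DKO etoposide replicate 2 to 22.2 in Null control replicate 1, and within the Null etoposide group from 8.27 to 9.45. Protein-coding genes with under 1000 bases of exon took their smallest shares of counts in DKO control replicate 1 (2.75%) and Null control replicate 3 (2.86%), against 2.96% to 3.18% in the others, with 2.97% in DKO etoposide replicate 2. B2m is itself one of these short genes, and without it the shares were 2.64% in DKO control replicate 1, 2.67% in Null control replicate 3 and 2.73% to 2.85% in the others. The part of these differences in the members' levels was not tested.

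**Figure D4:**
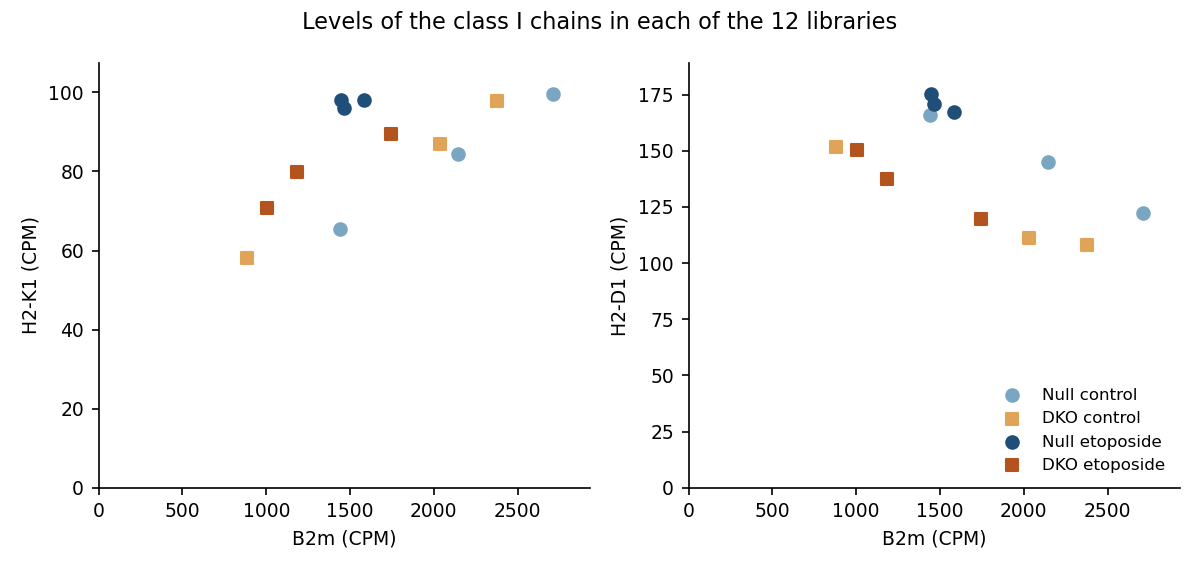
CPM of H2-K1 (left) and H2-D1 (right) against CPM of B2m in the 12 libraries, with groups by colour and genotype by shape. Within the control groups and DKO etoposide, libraries with more B2m hold more H2-K1 and less H2-D1, and the 3 Null etoposide libraries sit together at 1448 to 1582 CPM of B2m.

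The neighbours of the members in the pathway were taken from lists by function. Of 15 non-classical class I genes, which encode heavy chains related to H2-K1 with narrower roles, 14 were in the table and 12 were tested. In DKO cells after etoposide 10 of these 12 were lower than in Null cells, none was higher, and their median difference was -1.19 (17.8% of all genes called lower). Of the 10, H2-T10, H2-Q1, H2-Q2, H2-Q7 and H2-K2 lay under 1 CPM in DKO etoposide cells, and with at least 1 CPM required in 3 libraries 6 were called lower, H2-M3, H2-Q4, H2-Q6, H2-T10, H2-T23 and H2-T24. One of the 10, H2-T23 (-0.47), lost its call without any 1 etoposide library other than Null replicate 3 or DKO replicate 2 (-0.38 to -0.48). In control cells 4 of 12 were lower (8.39% of all genes called lower), among them H2-T10 (-0.705), whose call was lost without any 1 of the 6 control libraries (-0.66 to -0.77), Null etoposide replicate 2 (-0.70) or DKO etoposide replicate 2 (-0.72). With etoposide H2-Q4, H2-Q6 and H2-Q7 were called higher in Null and lower in DKO cells. H2-Q4 stood at 15.6 ± 0.762 CPM in Null control and 20.6 ± 1.73 CPM in Null etoposide cells, and 12.9 ± 1.94 and 6.77 ± 0.770 CPM in DKO cells (SD, n = 3). It rose in Null cells (0.40, limma-trend adjusted p = 0.0210) and fell in DKO cells (-0.92, limma-trend adjusted p = 7.18e-05). The first call was lost without Null control replicate 1 (0.36) or 2 (0.41) and without Null etoposide replicate 2 (0.35) or 3 (0.39). H2-Q6 moved by 0.44 and -0.59, and H2-Q7, at under 1 CPM in each group, went from 0.414 to 0.986 CPM in Null and from 0.662 to 0.385 CPM in DKO cells. The fall of H2-Q7 (-0.72) lost its call in 14 of 22 alternatives, among them the fits without any 1 library other than Null control replicate 1 or 3 (-0.51 to -0.83). H2-T24 ran the other way, falling in Null cells from 28.7 ± 2.09 to 10.0 ± 0.966 CPM, with 4.83 ± 0.865 and 6.15 ± 1.14 CPM in DKO cells (SD, n = 3). Between 7.02% and 17.9% of the 75-base windows of H2-Q4, H2-Q6 and H2-Q7 occurred in another gene, as did 581 of the 3621 windows of H2-T10 and 10.9%, 8.07% and 4.99% of those of H2-Q1, H2-Q2 and H2-K2, so reads of these copies may be partly lost or exchanged. These windows are from the reference annotation, and the effect of the BALB/c haplotype on the counts of the non-classical genes was not tested.

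Among the chaperones and the trimming enzyme of peptide loading, Calr, which encodes calreticulin, rose in Null (0.44, limma-trend adjusted p = 0.000178) and more in DKO cells (0.93, limma-trend adjusted p = 2.24e-07), with an interaction of 0.49 (limma-trend adjusted p = 0.00419). Erap1, the aminopeptidase that trims peptides, fell in Null (-0.61, limma-trend adjusted p = 0.0175) and DKO cells (-0.68, limma-trend adjusted p = 0.00904), and the first call was lost without Null control replicate 1 (-0.50) or Null etoposide replicate 2 (-0.59) or 3 (-0.59). Canx and Tapbpl were not called in any comparison. Among the other proteasome genes, none of 12 further core and assembly genes and none of the 3 PA28 activator genes was called lower in DKO cells. Over all genes, 8.39% were called lower in control cells and 17.8% after etoposide. After etoposide 3 of the 12 (Psma4, Psma5 and Psma6, 1.24, 0.43 and 0.49) and 1 of the 3 (Psme2, 0.30) were higher (15.9% of all genes). The calls of Psma4 (0.99 to 1.30) and Psme2 (0.25 to 0.32) were lost without any 1 etoposide library other than DKO replicate 2, and that of Psma5 without any 1 of the 6 (0.36 to 0.47).

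Of the factors that work with Nlrc5 at the class I promoter, Rfx5 rose in Null (0.70) and DKO cells (0.63), while Creb1 (-0.63 and -0.49) and Nfya (-0.79 and -0.997) fell in both. Nfyb, a subunit of NF-Y, rose in Null cells from 26.7 ± 1.99 to 38.4 ± 1.09 CPM and fell in DKO cells from 29.8 ± 0.945 to 19.5 ± 1.62 CPM (SD, n = 3). Nfyc fell in Null cells (-0.35, limma-trend adjusted p = 0.0105). Rfxank rose in DKO cells (0.52, limma-trend adjusted p = 0.00332) and was not called in Null cells (0.30). At its mean read density the overlapping gene Nr2c2ap would give 77.0% of the Rfxank counts. Between genotypes none of the 7 was called in control cells (19.3% of all genes), and after etoposide Nfyb was lower (-0.98) and Nfyc (0.38) and Creb1 (0.21) higher in DKO cells (33.6% of all genes). The Creb1 call was lost in 14 of 23 alternatives, among them the fits without Null control replicate 2 or 3, DKO control replicate 2 or any 1 of the 6 etoposide libraries (0.17 to 0.24). An estimated 27.9% of the Rfx5 counts would come from an antisense gene.

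Interferon transcripts themselves were nearly absent. Of 5 interferon genes 2 were in the table, Ifnb1 with 5 counts and Ifng with 1 count over the 12 libraries, none of them in a control library. The genes that carry the interferon signal split: after etoposide 6 of 14 were higher and 6 lower in DKO cells (15.9% and 17.8% of all genes). Among the lower were Socs1 (-2.23), Irf8 (-1.07), Irf9 (-0.66), Irf1 (-0.62) and Stat2 (-0.29, and -0.28 with no call without Null etoposide replicate 1), and Jak2 (0.91) and the receptor chain gene Ifngr2 (0.70) were among the higher. Of the other higher calls, that of Jak1 (0.19) was lost without any 1 of the 6 etoposide libraries (0.18 to 0.20) and that of Irf2 (0.69) without any but DKO replicate 2 (0.61 to 0.72). With etoposide Irf8 fell more in DKO (-1.52) than in Null cells (-0.87, interaction -0.65), and Irf9 rose in both (0.51 and 0.67).

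The class II genes, which serve presentation to CD4 T cells, were mostly low. H2-Aa and H2-Ab1 had 27 and 20 counts over all libraries and were not tested. Of the 8 tested, 3 were lower in DKO control cells (8.39% of all genes) and 4 after etoposide (17.8% of all genes), with none higher, and Cd74, the invariant chain and by far the most abundant, went from 372 ± 112 CPM in Null to 209 ± 63.2 CPM in DKO control and from 513 ± 10.0 to 275 ± 41.6 CPM after etoposide (SD, n = 3). Its differences were -0.84 (limma-trend adjusted p = 0.0246) and -0.91 (limma-trend adjusted p = 0.00970). The control call was lost without Null control replicate 1 (-0.61) or 2 (-0.87) and in 3 other alternatives.

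**Figure D5:**
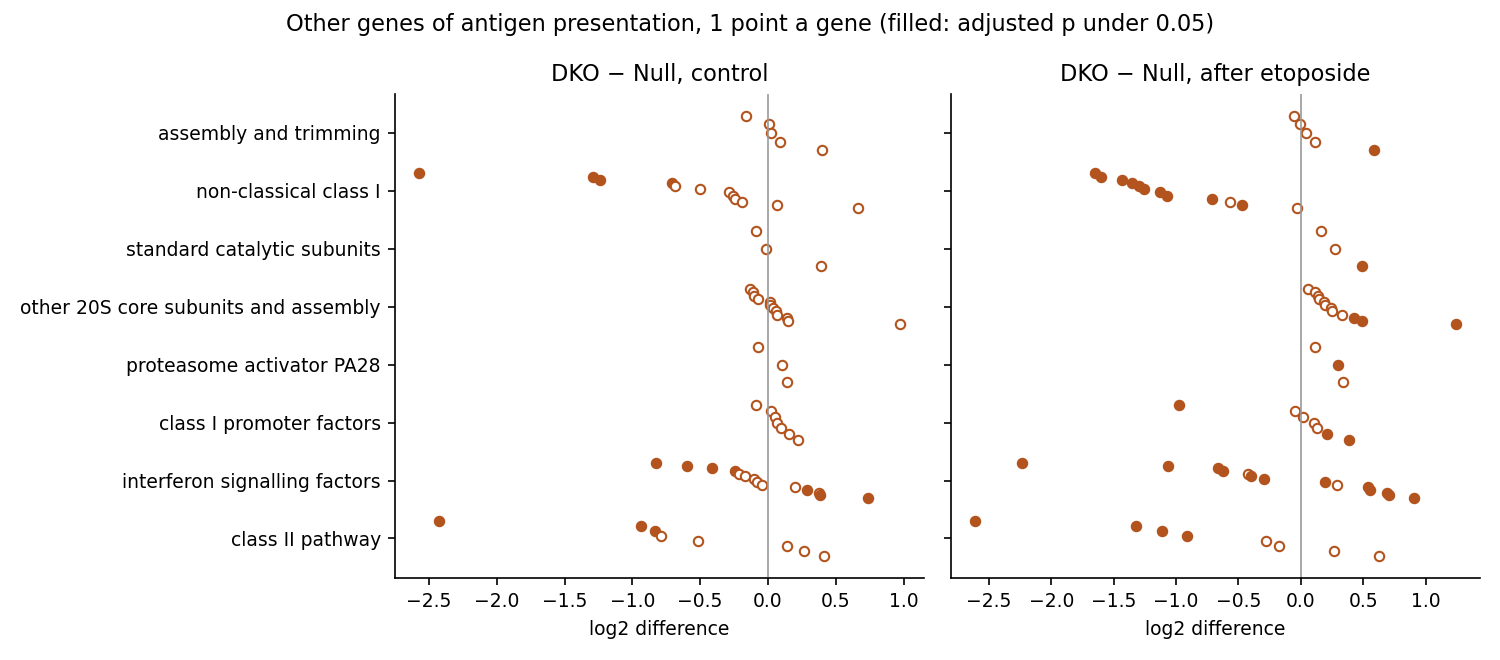
Log2 difference between DKO and Null cells (horizontal axes) for each tested gene of the pathway lists other than the 10 members, in control cells (left) and after etoposide (right). Filled points have a limma-trend adjusted p under 0.05. After etoposide 10 of 12 non-classical class I genes and no proteasome gene are filled and negative, where 17.8% of all genes tested were called lower.

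Over the 12 libraries, which fall into 4 groups and share those group differences, the log2 level of Nlrc5 followed that of Tap1 most closely among the members (Pearson r = 0.940). It was less close for Tap2 (0.814), H2-D1 (0.804), Psmb9 (0.784) and Psmb8 (0.738), and was 0.390 for H2-K1, 0.168 for Psmb10, 0.103 for Tapbp and -0.107 for B2m. Outside the lists the closest genes were Tal1 (0.982), Dusp16 (0.980), Carhsp1 (0.978), Naa40 (0.978) and Gm28043 (0.977), and 48 genes exceeded 0.95. The mean standardized profile of the 10 members lay closest to Ccdc63 (0.981), Acox3 (0.978), Speg (0.977), Apoc2 (0.977) and Gm44805 (0.977), with 63 genes above 0.95. Apoc2 and Gm44805, at 0.849 and 0.861 CPM in Null etoposide cells, held nearly the same counts.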

How the data were processed

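According to the study's methods, the authors removed ribosomal RNA, built stranded libraries, sequenced read pairs and aligned them with HISAT2, and pairs with a unique position were counted by HTSeq on a GENCODE annotation, whereas the submitters' processing notes name featureCounts and mm10. The deposited table holds raw counts, 1 column per library. The strand setting and the RNA kit of each library (2 are named) are not given in the sources used here, so reads of overlapping genes cannot be told apart and no kit effect could be tested. The share stated for an overlap is what the neighbour would contribute at its mean read density over all its exons. It is an estimate and no upper limit. The neighbour's counts may in turn hold reads of the gene itself, which the estimate does not take into account.

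Gene names and positions are from GENCODE M21 (GRCm38), by identifier without version. Counts were filtered with filterByExpr (edgeR 4.0.16), scaled by TMM and tested as log2 CPM (prior count 3) with limma-trend 3.58.1 in R 4.3.3, robust empirical Bayes, 1 mean per group over all 12 libraries, 5 contrasts, two-sided, with Benjamini-Hochberg adjustment over 18066 genes. The code was tested on simulated data. Alternatives were other scalings, filters, prior count, edgeR's quasi-likelihood test, DESeq2 1.42.0, fewer libraries, the replicate block and a minimum fold. The members' SD between libraries exceeded that from counting alone in every group, except for Tap1, Nlrc5 and H2-K1 in Null etoposide libraries. P-values measure the spread between these libraries, which may be technical. Named genes are all members, Tfeb, Tfe3, the genes of the pathway and marker lists, genes overlapping them, and the 5 closest to Nlrc5 and to the members' mean profile; 1 gene of the lists is not reported here by name. The members and lists were chosen with earlier results of these data known.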

Additional observations from a re-analysis of the deposited data

Results flagged for a closer look

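For 14 genes the etoposide response differed between DKO and Null cells by the test of the interaction (limma-trend with Benjamini-Hochberg adjustment). 2 are members, Tap1 (-0.49 on the log2 scale, adjusted p = 0.00947) and Nlrc5 (-0.42, adjusted p = 0.0405). Tfeb (1.16) is one of the targeted genes. It fell with etoposide in Null cells (-1.15, limma-trend adjusted p = 8.99e-05) and was not called in DKO cells (0.01, limma-trend adjusted p = 0.963). The other 11 come from the 64 tested genes of the pathway lists, of which 6 are non-classical class I genes: H2-Q7 (-1.92), H2-K2 (-1.46), H2-Q4 (-1.32) and H2-Q6 (-1.03) had a lower response in DKO cells, and H2-T24 (1.86) and H2-T23 (0.77) had a higher difference there. H2-K2 lay at 0.627 CPM or less in every group. The remaining 5 were Nfyb (-1.13), Irf8 (-0.65), Psma6 (0.57), Calr (0.49) and Ifngr2 (0.32). Leaving out 1 library ended the call of H2-T23 in each fit except those without Null control replicate 1, DKO control replicate 1 or DKO etoposide replicate 3 (0.65 to 0.84), and of H2-K2 in each except those without Null control replicate 3, DKO control replicate 1, Null etoposide replicate 2 or DKO etoposide replicate 3 (-1.30 to -1.47). The call of Ifngr2 was lost without Null control replicate 2, DKO control replicate 3, DKO etoposide replicate 1 or either of Null etoposide replicates 2 and 3 (0.30 to 0.32). Over all genes 9.45% were called in this contrast.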

How the results depend on the processing

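No difference changed sign past the threshold, and of 1140 values for single members under the alternatives 1082 stayed on their side of it, 14 passed it newly and 44 no longer passed. A minimum absolute log2 fold change of 1 left 1 member called in Null cells with etoposide (Tap1) and 0 in the other 4 comparisons, and left 5, 3, 4, 14 and 6 pathway genes, in the order of the 5 comparisons of the report. No count over all genes is given for this minimum fold. When only the 2 groups compared were fitted, 7 members were called after etoposide and 8 pathway genes in control cells. The calls over all genes also moved in these fits. They were 8223 of 17459 after etoposide (6079 of 18066 in the main fit) and 2031 of 16626 in control cells (3490 of 18066 in the main fit). In the interaction 1 member was called with library size alone, with no filter on low counts and with the replicate block, and 4 with DESeq2, which added Tapbp and Psmb10. Of all 18066 genes, the interaction was called for 2253 with DESeq2, 1693 with library size alone and 1310 with the replicate block (1708 in the main fit). Leaving out 1 library gave 2 to 5 members in DKO cells with etoposide (2 without DKO control replicate 3 or DKO etoposide replicate 1 or 2) and 1 to 2 in the interaction. The cause of these changes was not tested. The labels do not say whether replicate numbers mark pairs. Over 18 pairs of libraries with the same number, deviations from the group means correlated at -0.54 to 0.394 (median -0.003). Of these, 1 pair was over 0.1, and 2 of 12 libraries were closest to their own number. Libraries of different numbers reached 0.58, between Null control replicate 3 and DKO control replicate 1, and the main fit takes no account of such shared spread. With the replicate number as a block, the calls of Tap2 in Null cells, Tapbp in DKO cells and Nlrc5 in the interaction were lost, and no other member call changed. Among the pathway genes the block ended the calls of H2-M3, Pdia3 and Socs1 with etoposide in DKO cells, of Cd74, H2-T10 and Stat2 between genotypes in control cells, of Creb1, Jak1, H2-T23 and Psma5 between genotypes after etoposide, and of H2-T23 and Ifngr2 in the interaction. With 3 libraries per group the 95% interval of B2m spans more than 1 log2 unit in every comparison.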
